A study of Mus musculus with 32 samples.

Results

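Aortic cells lacking Oct4 answered low oxygen with higher levels of most glycolysis and cholesterol synthesis transcripts and lower levels of most collagen, matrix proteoglycan and mitosis transcripts. The comparison is of 3 RNA-seq libraries titled KO vehicle hypoxia, from cells kept in 1% oxygen, with 3 titled KO vehicle normoxia. These 6 libraries were chosen by their titles, out of 24 culture libraries and 32 libraries in the series. Both groups are C57BL/6 cells of genotype Oct4 -/- and both received vehicle, so that only the oxygen level differs between them in the labels. Oct4, whose gene is Pou5f1, is a transcription factor best known from pluripotent stem cells. The KO cells were a single primary aortic line described as smooth muscle and sampled in triplicate. The p-values therefore measure the spread between cultures or libraries within a group, which may be technical. That spread was estimated over all 8 culture groups, of the KO and the WT line, each 1 line. The remaining culture groups used here are KO cells with POVPC, an oxidized phospholipid, in hypoxia and normoxia, and WT cells with vehicle in hypoxia and normoxia, again 1 line and 3 libraries in each group. The time in hypoxia, the oxygen level of normoxia and the allele or Cre behind the KO genotype are not given in the sources used here.

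Pou5f1 had 1 count in KO vehicle hypoxia 3 and 0 in the other 5 libraries, and 3 counts would correspond to 0.119 to 0.306 CPM (normalized counts-per-million), so that its level cannot check the genotype. The cells were also checked against markers. Summed over 10 smooth muscle markers, the level was 70.6 to 77.2 CPM in hypoxia and 134 to 190.0 CPM in normoxia, mostly from Acta2 (smooth muscle actin) and Smtn (smoothelin), while Myh11 (smooth muscle myosin heavy chain) stayed at or below 0.306 CPM in hypoxia and at or below 0.513 CPM in normoxia. Summed over 8 adventitial fibroblast markers the level was 335 to 385 CPM in hypoxia and 1050 to 1080 CPM in normoxia. The summed endothelial markers reached at most 3.08 CPM in hypoxia and 5.39 CPM in normoxia with Tie1 at 0, and the macrophage markers at most 3.84 CPM in hypoxia and 2.97 CPM in normoxia. The defining smooth muscle myosin was thus near 0, and the cells are called KO cells here. In bulk RNA, fewer cells of a type and less RNA per cell cannot be told apart.

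Hypoxia libraries held 23163759, 21998292 and 11618385 counts, and normoxia libraries 19754346, 22331259 and 25597434. KO vehicle hypoxia 3 stood apart: it was the shallowest, listed 8.07 multimapping alignments per assigned one, against 1.89 and 2.42 in the other two hypoxia libraries and 0.793 to 3.88 in normoxia, and 14.2% of its counts were on Rpph1 (the RNA of ribonuclease P), against 3.29 and 7.15% in hypoxia and 1.15 to 6.91% in normoxia. Other libraries were unusual in other measures. KO vehicle normoxia 3 had 8.02% of its counts on the ribosomal RNA gene Rn45s, against 1.59 and 1.29% in normoxia 1 and 2. KO vehicle hypoxia 1 had a count in 18311 genes, against 15522 to 16768 in the other libraries compared. Hypoxia and normoxia separated on a first principal component with 85.5% of the variance, and the second, with 7.27%, set KO vehicle hypoxia 3 and normoxia 3 at opposite ends. Log2 CPM correlated across genes at 0.9187 to 0.9342 between the groups, with genes not being independent replicates.

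Cells sense oxygen through prolyl hydroxylases, which use it to mark the alpha subunits of hypoxia-inducible factor (HIF) for the VHL ubiquitin ligase and destruction. When oxygen is scarce the alpha subunit persists, pairs with Arnt and binds DNA at the core motif ACGTG, and its best known targets bring in glucose, run glycolysis and divert pyruvate from mitochondria. In the artery wall, smooth muscle cells and fibroblasts also build the collagen and proteoglycan matrix, whose fibres need oxygen-dependent hydroxylation of collagen.

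Of 14496 genes tested, 9481 differed between hypoxia and normoxia at a false discovery rate (FDR) under 0.05, which is 65.4%, by edgeR's quasi-likelihood test, with 4729 higher (32.6%) and 4752 lower (32.8%). At least 2-fold changes were found for 1440 higher genes (9.93%) and 2347 lower ones (16.2%). With such a share called, a count of members within a gene list is read against these percentages. The median log2 fold change of all tested genes was 0.02. Without KO vehicle hypoxia 3, 9061 of 14736 genes passed (61.5%), and 8835 genes passed in both fits with the same sign, which is 93.2% of the calls with it and 97.5% of those without it. The 3 hypoxia libraries lay all above the normoxia libraries in 4800 genes (33.1%) and all below in 4822 (33.3%).

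Slc2a1, the glucose transporter GLUT1 (mm9 chr4:118781350-118809934, plus strand), had 273, 269.8 and 270.3 CPM in hypoxia, against 11.7, 14.7 and 12.4 CPM in normoxia. The groups were far apart and the hypoxia libraries nearly equal, a log2 fold change of 4.39 ± 0.10 (SE; FDR 2.19e-24). Ankrd37, an ankyrin repeat gene known as a HIF target (mm9 chr8:47082262-47085204, minus strand), had 84.5, 81.3 and 87.1 CPM in hypoxia, against 1.44, 0.833 and 1.08 CPM in normoxia. It was 76.2-fold higher (6.25 ± 0.18 on the log2 scale, FDR 6.69e-21). Sprr1a, a small proline-rich protein known from stressed epithelia (mm9 chr3:92287876-92289803, minus strand), had 522, 481 and 428 CPM in hypoxia, against 2.05, 5.52 and 6.21 CPM in normoxia (6.67 ± 0.42, FDR 2.19e-10). Lum, the collagen-binding proteoglycan lumican (mm9 chr10:97028135-97035337, plus strand), was lower in hypoxia, with 0.591, 0.191 and 1.02 CPM in hypoxia, against 84.9, 74.7 and 70.9 CPM in normoxia (-7.20 ± 0.19, FDR 1.53e-20).

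**Figure D1:**
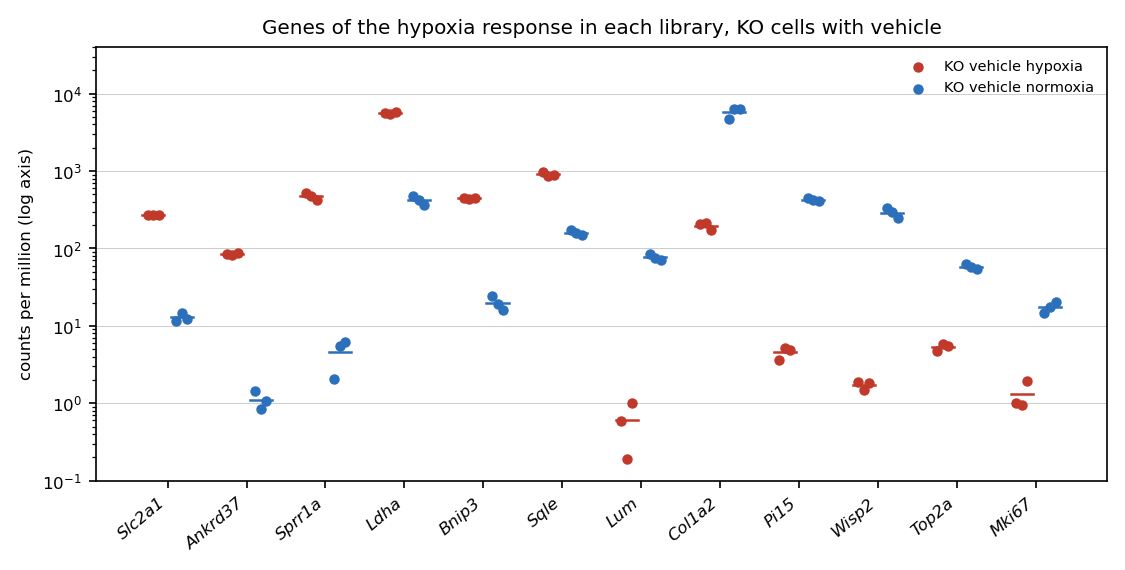
Normalized level of 12 genes in each of the 6 libraries on a log axis of CPM, with KO vehicle hypoxia (red) left of KO vehicle normoxia (blue), points for libraries and bars for means. Slc2a1, Ankrd37, Sprr1a, Ldha, Bnip3 and Sqle stand higher in all 3 hypoxia libraries, and Lum, Col1a2, Pi15, Wisp2, Top2a and Mki67 lower.

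Of the 9 tested genes of oxygen sensing, 5 rose and 3 fell, with a median of 0.55. Among the hydroxylases that inactivate HIF, Egln3 (PHD3) had 63.0, 60.5 and 65.7 CPM in hypoxia, against 4.97, 6.75 and 5.10 CPM in normoxia (3.49 ± 0.11, FDR 7.44e-21). Egln1 (PHD2), the main hydroxylase in most cells, had 439, 423 and 358 CPM in hypoxia, against 44.9, 50.9 and 53.8 CPM in normoxia (3.03 ± 0.09, FDR 1.06e-21). Both were several-fold higher in every hypoxia library. Egln2 (PHD1), the asparaginyl hydroxylase Hif1an and Vhl rose less, with log2 fold changes of 0.65 ± 0.08, 0.55 ± 0.12 and 0.84 ± 0.09. The HIF subunits themselves did not rise. Hif1a had 294, 286 and 287 CPM in hypoxia, against 561, 532 and 579 CPM in normoxia (-0.95 ± 0.07, FDR 4.25e-12), and its partners Arnt and Arnt2 fell by 0.74 and 1.65 on the log2 scale. Epas1, the gene of HIF-2 alpha, was not called (0.19 ± 0.22, FDR 0.454).

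Of the 23 genes of glucose uptake and glycolysis, 19 rose, 3 fell and 1 was not called, with a median log2 fold change of 3.11 against 0.02 for all genes, and 18 of them rose at least 2-fold. At its entry, the hexokinase Hk2 had 156, 159 and 124 CPM in hypoxia, against 10.2, 10.5 and 13.4 CPM in normoxia (3.69 ± 0.13), and the more abundant Hk1 rose less (1.81 ± 0.12). Of the phosphofructokinases, which commit sugar to glycolysis, Pfkl had 736, 737 and 507 CPM in hypoxia, against 31.7, 40.3 and 42.4 CPM in normoxia (4.11 ± 0.13), and Pfkp rose alongside it (3.77 ± 0.10). The muscle form Pfkm went the other way, with 18.5, 19.5 and 11.5 CPM in hypoxia, against 101, 114 and 106 CPM in normoxia (-2.66 ± 0.14, FDR 3.18e-14). Pfkfb3, which makes the activator of phosphofructokinase, rose (2.94 ± 0.10), while its relative Pfkfb4 was not called (0.05 ± 0.15, FDR 0.782).

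Downstream, Pgk1 (phosphoglycerate kinase) had 438, 446 and 423 CPM in hypoxia, against 26.5, 21.9 and 23.9 CPM in normoxia (4.18 ± 0.08, FDR 3.57e-25). Aldoa (aldolase), Tpi1 (triosephosphate isomerase), Gpi1 (glucose phosphate isomerase), Pgam1 (phosphoglycerate mutase) and Pkm2 (pyruvate kinase) rose by 2.61 to 3.27. Ldha, which turns pyruvate into lactate, had 5552, 5409.6 and 5777 CPM in hypoxia, against 471, 417 and 366 CPM in normoxia, a 13.3-fold difference (3.74 ± 0.10, FDR 5.03e-23). Per kilobase of exon, Ldha and Pkm2 had the levels of 2891 and 2839.6 CPM in hypoxia, against 217 and 325 CPM in normoxia. Slc16a3 (MCT4), which exports lactate, had 13.5, 15 and 14.3 CPM in hypoxia, against 1.08, 0.745 and 1.43 CPM in normoxia (3.70 ± 0.21). Pdk1, the kinase that shuts the pyruvate dehydrogenase gate to mitochondria, rose as well (3.11 ± 0.08).

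Besides Pfkm, 2 members were lower. Eno2 (neuronal enolase) had 6.28, 9.24 and 9.48 CPM in hypoxia, against 15.2, 14.2 and 16.4 CPM in normoxia (-0.90 ± 0.14, FDR 1.42e-06). Slc2a3 (GLUT3) stayed under 1 CPM in all libraries, the groups overlapped, and its call as lower (FDR 0.0286) was lost without hypoxia 2 (FDR 0.142), hypoxia 3 (FDR 0.0718), normoxia 1 (FDR 0.0618) or normoxia 2 (FDR 0.117). Levels of Gapdh (39.9 ± 5.54 CPM in hypoxia and 3.36 ± 0.949 CPM in normoxia, SD, n = 3 each) and Eno1 (0.559 ± 0.0726 CPM in hypoxia and 0.136 ± 0.0502 CPM in normoxia) are uncertain, since Gapdh has near-identical copies in the mouse genome and exons of Eno1 overlap Gm5506 in the annotation. Exons of Tpi1 overlap Spsb2 and those of Pfkp overlap Pitrm1.

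**Figure D2:**
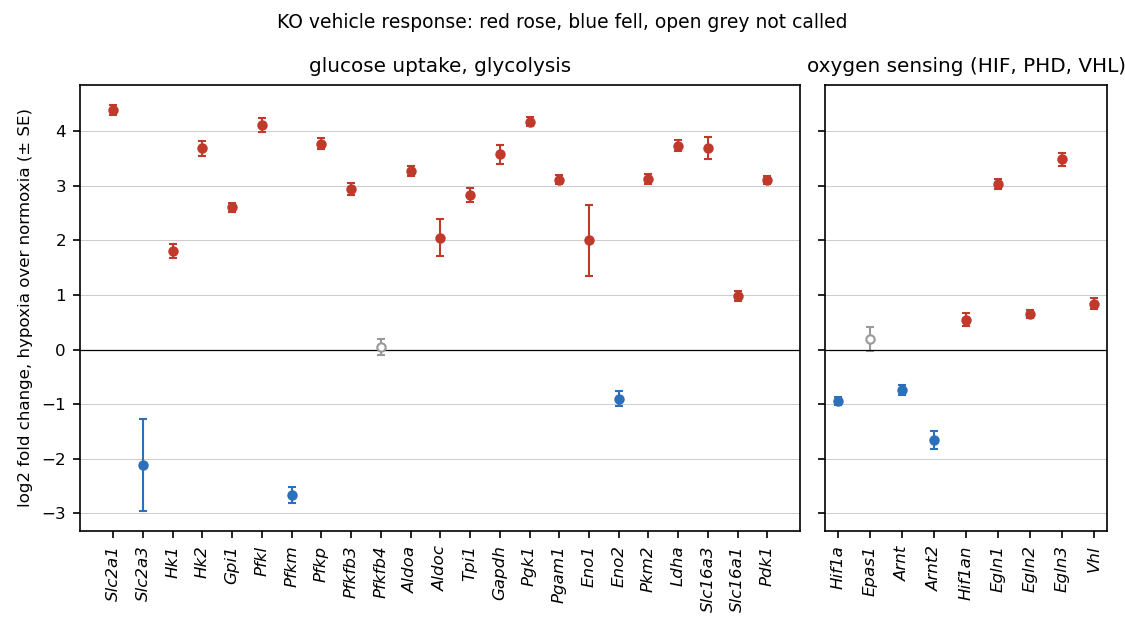
Log2 fold change of hypoxia over normoxia, with its SE, for each tested gene of glucose uptake and glycolysis (left) and of oxygen sensing (right) in KO vehicle cells. Slc2a1 is highest at 4.39, while Pfkm, Slc2a3 and Eno2 lie below 0, as do Hif1a, Arnt and Arnt2.

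Of 31 other genes listed as HIF targets, 24 rose, 5 fell and 2 were not called, with a median of 2.02. Some act at mitochondria. Bnip3, a receptor for mitophagy, had 442, 438 and 450.3 CPM in hypoxia, against 24, 19 and 15.8 CPM in normoxia (4.50 ± 0.11). Higd1a, a respiratory chain assembly factor, had 286, 276 and 266 CPM in hypoxia, against 15.5, 16.5 and 14.4 CPM in normoxia (4.16 ± 0.08). Ak4, a mitochondrial adenylate kinase, had 98.7, 99.1 and 94.3 CPM in hypoxia, against 1.95, 1.84 and 2.23 CPM in normoxia, and was 48.3-fold higher (5.59 ± 0.13). In all 3 the lowest hypoxia library was far above the highest normoxia library. Tfrc (the transferrin receptor) rose by 3.70 ± 0.09 and the oxygen-dependent histone demethylase Kdm3a by 2.53 ± 0.09.

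Secreted and surface members varied more. Vegfa, the main angiogenic growth factor, had 145, 142 and 136 CPM in hypoxia, against 56.7, 54.2 and 60.9 CPM in normoxia, a 2.47-fold difference (1.30 ± 0.08). The carbonic anhydrase Car9, often used as a hypoxia marker, stayed at 1.43, 1.38 and 1.53 CPM in hypoxia, against 1.28, 1.71 and 1.83 CPM in normoxia (-0.17 ± 0.43, FDR 0.746), and Insig2 (0.00 ± 0.08, FDR 0.966) was likewise not called. The 5 members that fell were Car12 (-3.77 ± 0.36), Igfbp3 (-2.14 ± 0.09), Pdgfb (-1.92 ± 0.24), Angptl4 (-1.81 ± 0.16) and Stc2 (-0.98 ± 0.14). Rab20 was called as higher (0.55 ± 0.23, FDR 0.0358), but that call was lost without hypoxia 1 (FDR 0.068), hypoxia 3 (FDR 0.101), normoxia 2 (FDR 0.0823) or normoxia 3 (FDR 0.189). It was also lost with scaling by library size alone (FDR 0.0818), with no filter (FDR 0.0921) and with the 6 libraries fitted alone (FDR 0.0624).

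To show where the HIF core motif lies in genes of this group, the promoters of the 5 largest rises among the glycolysis, oxygen sensing and HIF target lists that are in the promoter table and hold the motif are given (RefSeq, GRCm38.p6), from 250 bases before to 50 after the annotated start. Capitals mark ACGTG or, on the opposite strand, CACGT, which overlap as CACGTG. They are Ankrd37 (chr8:45999801-46000100, minus strand), Ak4 (chr4:101419453-101419752, plus strand, 1 of 4 annotated starts), Bnip3 (chr7:138909457-138909756, minus strand), Slc2a1 (chr4:119108495-119108794, plus strand) and Pgk1 (chrX:106186850-106187149, plus strand).
Ankrd37: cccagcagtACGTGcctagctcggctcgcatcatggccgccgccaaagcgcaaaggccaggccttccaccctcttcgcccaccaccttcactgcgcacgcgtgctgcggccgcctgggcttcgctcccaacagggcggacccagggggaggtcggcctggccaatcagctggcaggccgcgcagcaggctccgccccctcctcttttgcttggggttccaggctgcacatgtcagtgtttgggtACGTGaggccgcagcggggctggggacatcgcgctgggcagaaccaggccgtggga
Ak4: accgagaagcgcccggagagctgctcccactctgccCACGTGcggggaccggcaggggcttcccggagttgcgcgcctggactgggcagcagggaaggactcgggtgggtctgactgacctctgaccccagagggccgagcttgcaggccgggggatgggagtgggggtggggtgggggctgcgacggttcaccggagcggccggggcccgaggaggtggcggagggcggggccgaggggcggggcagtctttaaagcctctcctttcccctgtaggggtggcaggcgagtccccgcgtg
Bnip3: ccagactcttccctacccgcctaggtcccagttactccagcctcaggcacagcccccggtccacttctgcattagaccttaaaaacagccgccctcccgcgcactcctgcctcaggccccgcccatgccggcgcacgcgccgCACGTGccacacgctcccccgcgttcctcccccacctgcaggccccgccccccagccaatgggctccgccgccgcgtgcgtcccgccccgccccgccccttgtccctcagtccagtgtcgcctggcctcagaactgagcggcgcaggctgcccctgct
Slc2a1: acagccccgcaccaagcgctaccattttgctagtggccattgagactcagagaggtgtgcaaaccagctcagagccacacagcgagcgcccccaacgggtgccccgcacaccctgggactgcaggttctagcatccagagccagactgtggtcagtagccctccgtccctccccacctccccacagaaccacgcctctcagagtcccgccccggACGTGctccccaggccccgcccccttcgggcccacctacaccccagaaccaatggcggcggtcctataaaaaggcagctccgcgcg
Pgk1: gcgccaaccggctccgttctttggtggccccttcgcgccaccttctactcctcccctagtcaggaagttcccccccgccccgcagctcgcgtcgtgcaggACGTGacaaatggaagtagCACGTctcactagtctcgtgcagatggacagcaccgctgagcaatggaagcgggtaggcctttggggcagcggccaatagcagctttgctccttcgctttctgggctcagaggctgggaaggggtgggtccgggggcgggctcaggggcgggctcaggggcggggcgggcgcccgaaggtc
Ankrd37 and Pgk1 hold 2 separate matches each, Slc2a1 holds 1, and in Ak4 and Bnip3 the 2 strands' matches overlap as CACGTG. Of the 48 members of the 3 lists that rose, 43 were in the promoter table by name, and 31 of these (72.1%) had the motif in at least 1 window. Of all 10035 tested genes in the table, 2852 had it (28.4%). Among genes that rose at least 2-fold the share was 32.1% (300 of 934), and among those that fell at least 2-fold 21.4% (352 of 1644). A match of 5 letters is a description and not a binding site, and many list members are in the list because they are known HIF targets.

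Branches of energy metabolism next to glycolysis moved less evenly. Of 8 glycogen genes, 4 rose and 2 fell, with Gbe1, the branching enzyme, at 208, 217 and 209.7 CPM in hypoxia, against 17.7, 12.8 and 14.6 CPM in normoxia (3.82 ± 0.11), and the synthase Gys1 close behind (3.43 ± 0.16). Of 17 genes of the citric acid cycle and pyruvate handling, 3 rose and 8 fell (median -0.13), with Suclg2, a subunit of succinyl-CoA ligase, at -1.65 ± 0.09. Of 73 respiratory chain subunits, 8 rose and 24 fell (median -0.16), and 41 were not called, a smaller called share than the 65.4% of all genes. Sdhc, of succinate dehydrogenase, had 117, 125 and 125 CPM in hypoxia, against 238, 209 and 174 CPM in normoxia (-0.76 ± 0.09), and Cox5a, of cytochrome oxidase, went the other way (0.71 ± 0.09). Of 23 autophagy and lysosome genes, 11 rose and 7 fell, led by the lysosomal membrane protein Lamp1 (1.72 ± 0.06).

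Cholesterol synthesis genes rose together. Of 23 tested genes, 22 rose, all of them at least 2-fold, and 1 was not called (median 2.60). Sqle, the squalene epoxidase that needs molecular oxygen, had 975, 874 and 887 CPM in hypoxia, against 175, 159 and 148 CPM in normoxia (2.51 ± 0.10). Cyp51, the oxygen-dependent lanosterol demethylase, and Sc5d, the sterol desaturase, rose by 2.69 ± 0.10 and 2.55 ± 0.09. In each of these 3 the lowest hypoxia library lay far above the highest normoxia library. Of 12 fatty acid synthesis genes, 10 rose and 1 fell (median 0.85), among them the citrate lyase Acly (2.17 ± 0.11) and the desaturase Scd1 (1.72 ± 0.13).

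The matrix program fell. Of 19 collagens, 18 fell and none rose (median -3.02). Col1a2, a chain of the main fibrillar collagen, had 205, 211 and 172 CPM in hypoxia, against 4696, 6354 and 6361 CPM in normoxia, and was 29.6-fold lower (-4.89 ± 0.12, FDR 3.64e-22). Col8a1, a short-chain collagen of vessels, had 8.27, 11 and 10.7 CPM in hypoxia, against 374, 368 and 354 CPM in normoxia (-5.21 ± 0.12). Col6a1, of the pericellular microfibrils, fell by 3.26 on the log2 scale. The highest hypoxia library was below the lowest normoxia library in all 3. The collagen not called, named after its values were seen, was Col12a1 (-0.13 ± 0.17, FDR 0.504).

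All 11 matrix proteoglycans fell (median -3.70). Besides Lum, osteoglycin (Ogn) had 104, 127 and 134 CPM in hypoxia, against 1609, 1553 and 1575 CPM in normoxia (-3.70 ± 0.11), asporin (Aspn) fell by 4.29, and decorin (Dcn), which keeps collagen fibrils thin, had 554, 566 and 568 CPM in hypoxia, against 3315, 2919.7 and 2730.1 CPM in normoxia (-2.41 ± 0.09). Of 17 elastic fibre genes, 13 fell and 1 rose (median -2.04). Ltbp1, which anchors latent TGF-beta, had 228, 294 and 268 CPM in hypoxia, against 1956, 2138 and 2326 CPM in normoxia (-3.02 ± 0.10), and fibrillin-1 (Fbn1) fell by 2.04. The member that rose was Fbln2, named after its values were seen (0.31 ± 0.09). Of 14 matricellular genes, 10 fell and 3 rose (median -1.29). Wisp2, a CCN family member, had 1.90, 1.48 and 1.83 CPM in hypoxia, against 329.9, 292 and 246 CPM in normoxia, a 167-fold difference (-7.38 ± 0.17).

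Collagen-modifying enzymes divided. Of 19, 5 rose and 10 fell (median -0.28). The prolyl hydroxylase subunits P4ha1 and P4ha2, which use oxygen to stabilize the collagen helix, rose by 2.42 ± 0.08 and 2.53 ± 0.08, with P4ha1 at 816, 834 and 775 CPM in hypoxia, against 164, 152 and 138 CPM in normoxia. The crosslinking oxidase Loxl3, whose exons overlap Htra2, had 8.56, 8.58 and 8.56 CPM in hypoxia, against 51.5, 44.2 and 43.5 CPM in normoxia (-2.44 ± 0.11). The lysyl hydroxylase Plod2, known elsewhere as a HIF target, fell (-0.56 ± 0.07), with exons that overlap B430319G15Rik. Of 21 matrix proteases and inhibitors, 12 fell and 5 rose (median -0.87), Mmp23 falling by 3.22 and the aggrecanase Adamts1 rising by 1.66. Beside these lists, the summed adventitial fibroblast markers were lower in hypoxia in the ranges given above. Of their 7 tested members, 6 fell, among them Cd248 (endosialin, -6.27 ± 0.22) and Cd34 (-5.38 ± 0.20, exons overlapping Gm16897). The part of these markers in the matrix result was not tested.

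Of 20 contractile genes, 9 fell and 2 rose (median -0.39). Acta2 had 37.2, 39.6 and 38.2 CPM in hypoxia, against 56.0, 56.5 and 62.4 CPM in normoxia (-0.61 ± 0.19, FDR 0.0098). Smtn fell by 2.44 and the integrin Itga8, whose exons overlap E030013I19Rik, by 5.19. Tagln (SM22), whose exons overlap Pcsk7, was higher, with 14.2, 14.3 and 12.7 CPM in hypoxia, against 3.95, 3.59 and 5.22 CPM in normoxia (1.69 ± 0.17). The other was Actg2, named after its values were seen, which stayed below 2 CPM. Of 28 growth factors and their partners, 22 fell and 2 rose, with a median of -1.72, or -1.49 with Fgf2 at its bound. Igfbp4, an IGF-binding protein, had 7.59, 6.62 and 8.36 CPM in hypoxia, against 98.5, 101 and 97.3 CPM in normoxia (-3.73 ± 0.13), and Angpt2, an antagonist of the endothelial receptor Tie2, fell by 2.51. Those that rose were Pdgfa (1.93 ± 0.09) and, named after its values were seen, the vasoconstrictor peptide gene Edn1 (2.99 ± 0.23).

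Mitosis genes fell together. Of 23 mitosis genes, 22 fell and none rose (median -2.55). Top2a, the topoisomerase that untangles chromosomes, had 4.81, 5.86 and 5.50 CPM in hypoxia, against 62.4, 57.7 and 55.1 CPM in normoxia (-3.44 ± 0.12, FDR 4.72e-20). The proliferation marker Mki67 had 1.01, 0.953 and 1.94 CPM in hypoxia, against 14.8, 17.5 and 20.1 CPM in normoxia (-3.89 ± 0.23), and the mitotic kinase Cdk1 fell by 3.73. All hypoxia libraries were below all normoxia libraries. The gene not called, named after its values were seen, was Foxm1, a transcription factor of this program (0.30 ± 0.23, FDR 0.267).

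DNA replication genes divided. Of 25, 11 rose and 9 fell, with a median of 0.22 that was -0.02 with hypoxia 1 and 3 both left out. The helicase subunit Mcm7 had 120.5, 109 and 112 CPM in hypoxia, against 45.8, 46.5 and 46.2 CPM in normoxia (1.30 ± 0.07), and the sliding clamp Pcna rose by 1.29 ± 0.09, whereas Uhrf1, which maintains DNA methylation, fell by 2.11. Of 16 CDK inhibitors and p53 targets, 8 rose and 5 fell. Ccng1 had 3069.9, 3257 and 3443 CPM in hypoxia, against 953, 842 and 793 CPM in normoxia (1.92 ± 0.07), and Mdm2, the ligase that degrades p53, rose by 1.58 ± 0.07. Of 21 ribosome biogenesis genes, 19 rose and none fell (median 0.86), such as the nucleolar proteins Nop56 (1.51 ± 0.06, exons overlapping Idh3b) and Npm1 (1.21 ± 0.07).

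Stress programs were mixed. Of 19 genes of the ATF4 amino acid response, 12 rose and 4 fell (median 0.73), with Asns (asparagine synthetase) at 137, 131 and 136 CPM in hypoxia, against 33.9, 29.1 and 28 CPM in normoxia (2.15 ± 0.09), and Atf4 itself higher (1.43 ± 0.07). Of 17 chaperones and response genes of the endoplasmic reticulum, 10 fell and 3 rose (median -0.32), with the transcription factor Xbp1 at 46.3, 42.9 and 45.0 CPM in hypoxia, against 126, 127 and 109 CPM in normoxia (-1.43 ± 0.09). Of 18 NRF2 targets, 10 rose and 4 fell (median 0.33). Gclc, which limits glutathione synthesis, fell by 1.35 and the ferritin heavy chain Fth1 by 1.33. Of 16 heat shock genes, 7 rose and 3 fell, with Hsp90aa1 at 1.33 ± 0.07.

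Of 15 oxygen-dependent demethylases, 7 rose and 4 fell (median 0.08), with Kdm4b at 1.17 ± 0.09. Of 17 immediate early genes, 6 rose and 3 fell. The phosphatase gene Dusp1 had 117, 121 and 115 CPM in hypoxia, against 11.4, 12.8 and 10.8 CPM in normoxia (3.33 ± 0.09), while Jun fell by 1.33. Of 18 inflammatory genes, 6 rose and 8 fell: the chemokine Cxcl12 had 2595, 2769.8 and 2693 CPM in hypoxia, against 708, 748 and 822 CPM in normoxia (1.82 ± 0.08), and the inhibitor Nfkbia fell by 1.97. Of 18 interferon response genes, 3 rose and 8 fell, with Bst2 (tetherin) at -2.92 ± 0.21.

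Beyond the lists, the largest rises by the naming rule were of genes with diverse roles. Fat2, a protocadherin, had 10.3, 9.15 and 8.87 CPM in hypoxia, against 0.102, 0 and 0 CPM in normoxia. Gpr35, an orphan G protein-coupled receptor, had 21.8, 19.6 and 15 CPM in hypoxia, against 0.102, 0.0876 and 0.239 CPM in normoxia (6.95 ± 0.35). Cyp17a1, a steroid hydroxylase, had 19.8, 14.7 and 17.9 CPM in hypoxia, against 0.205, 0.438 and 0.0796 CPM in normoxia (6.17 ± 0.35). None of these 3 passed 1 CPM in a normoxia library. Mt2, a metallothionein that binds zinc, had 678, 541 and 577 CPM in hypoxia, against 9.79, 13.6 and 17 CPM in normoxia (5.47 ± 0.34). Of the Sprr and keratin list, 5 of 15 members were tested, of which 4 rose. Krt19 had 294, 251 and 283 CPM in hypoxia, against 98.5, 84.1 and 82.3 CPM in normoxia (1.64 ± 0.11). Krt8 had 2.32, 1.24 and 1.43 CPM in hypoxia and no count in normoxia, which makes it at least 37.4-fold higher against 3 counts over the normoxia group. Summed over 6 epithelial markers, the level was 7.74 to 12.9 CPM in hypoxia and 6.56 to 8.37 CPM in normoxia. Of these markers, Krt8 and Krt18 rose, whereas Cdh1 fell, with 4.22, 2.67 and 2.04 CPM in hypoxia, against 6.05, 7.32 and 7.09 CPM in normoxia. Epcam was at 0.127, 0 and 0 CPM in hypoxia and at 0 in normoxia. The part of these markers in the keratin result was not tested.

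Among the largest falls, Kcnh2, a potassium channel, had 0.0844, 0.0953 and 0 CPM in hypoxia, against 17.4, 16.2 and 16.8 CPM in normoxia. Pi15, a peptidase inhibitor, had 3.59, 5.15 and 4.89 CPM in hypoxia, against 454, 421 and 409.7 CPM in normoxia (-6.58 ± 0.18). Ptpn5, a tyrosine phosphatase known from brain, had 0.591, 0.858 and 1.43 CPM in hypoxia, against 69.6, 84.5 and 94.7 CPM in normoxia (-6.59 ± 0.25). Cacna1g, a T-type calcium channel of smooth muscle, had 0.633, 0.762 and 0.204 CPM in hypoxia, against 40.1, 46.5 and 60.6 CPM in normoxia (-6.34 ± 0.30).

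The response of the KO line was set against that of the WT line with vehicle, with which it shares no library. In WT cells 9866 genes were called (68.1%), 4748 higher (32.8%) and 5118 lower (35.3%). Genotype and line cannot be told apart, since each genotype is 1 line. The log2 fold change differed between the lines in 5670 of 14496 genes (39.1%), higher in KO for 2788 (19.2%) and lower for 2882 (19.9%), or 2993 and 1991 with scaling by library size alone. Among the 5670, 322 rose in KO and fell in WT, and 360 fell in KO and rose in WT, while 1006 were called the same way in both with the larger change in KO and 1462 with the larger change in WT. Of the 23 glycolysis genes, 19 rose in KO and 21 in WT (medians 3.11 in KO and 3.63 in WT). The response, a fold change and not a level, was lower in KO for 14 of them and higher for 3. Among the 14, Ldha averaged 5579 CPM in KO hypoxia and 418 CPM in KO normoxia, against 4264 and 193 CPM in WT. Aldoa averaged 3412 CPM in KO hypoxia and 354 CPM in KO normoxia, against 4539 and 343 CPM in WT. A lower response thus went with a higher hypoxia level in KO for Ldha and a lower one for Aldoa. Sprr1a (6.67 in KO and 6.16 in WT) and Ankrd37 (6.25 in KO and 6.37 in WT) did not pass the threshold for a difference (0.51 ± 0.65, FDR 0.568, and -0.12 ± 0.28, FDR 0.768). Slc2a1 had a larger fold change in KO (4.39 in KO and 3.70 in WT, difference 0.69 ± 0.12, FDR 4.28e-05), unlike the 14 glycolysis genes with a lower response. Its level was lower in KO in both conditions, averaging 271 CPM in KO hypoxia and 12.9 CPM in KO normoxia, against 357 and 27.4 CPM in WT. The Lum response differed as well (FDR 0.000135), but Lum had no count in WT hypoxia, against 32.0 ± 1.78 CPM in WT normoxia, so that no size is given for that difference.

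Lipid and division genes set the lines apart. All 12 fatty acid synthesis genes and 22 of 23 cholesterol synthesis genes responded less in KO (medians 0.85 in KO and 2.70 in WT, and 2.60 in KO and 4.13 in WT). The fatty acid elongase Elovl6 was at 89.6 ± 5.80 CPM in KO hypoxia and 96.2 ± 4.28 CPM in KO normoxia, and at 289 ± 35.3 CPM in WT hypoxia and 22.4 ± 0.246 CPM in WT normoxia (SD, n = 3 each). It was not called in KO (FDR 0.357), and the responses differed by -3.79. Of the mitosis genes, 21 of 23 responded lower in KO (medians -2.55 in KO and -0.30 in WT). Mki67 was at 1.30 ± 0.551 CPM in KO hypoxia and 17.5 ± 2.67 CPM in KO normoxia, and at 7.5 ± 0.314 CPM in WT hypoxia and 11 ± 0.501 CPM in WT normoxia, a difference of -3.34 ± 0.30 between the responses (FDR 3.85e-10). Among stress genes, 16 of 18 NRF2 targets and 13 of 17 immediate early genes responded lower in KO, with medians of 0.33 in KO and 1.31 in WT, and of 0.18 in KO and 1.65 in WT.

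**Figure D3:**
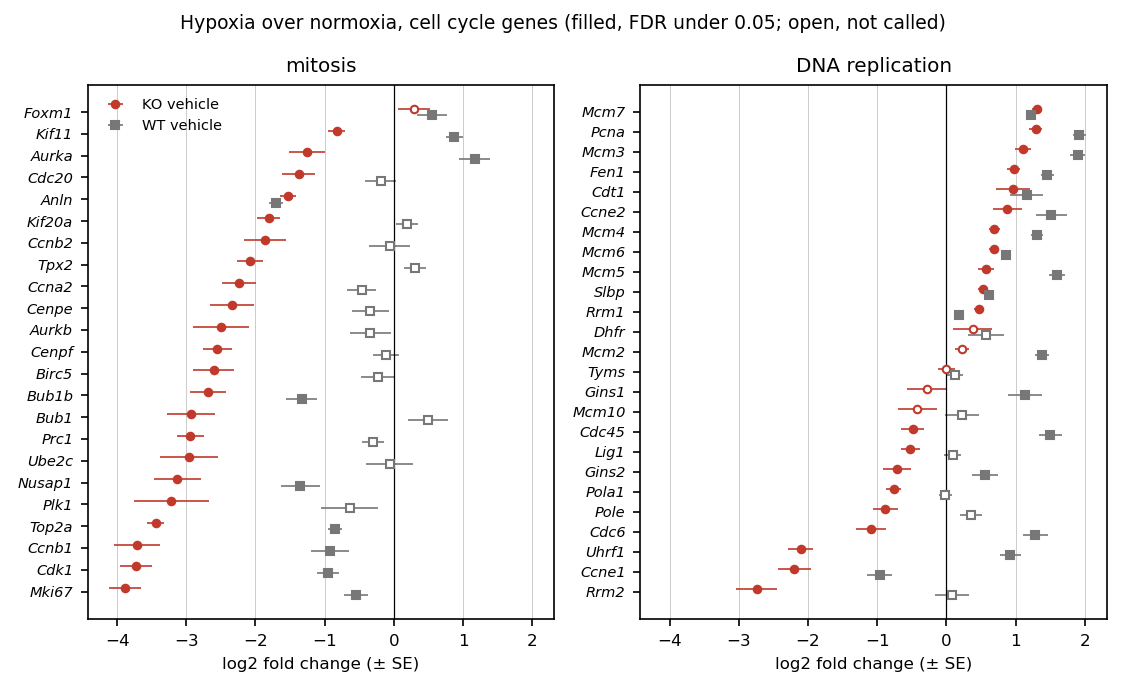
Log2 fold change of hypoxia over normoxia with its SE for mitosis genes (left) and DNA replication genes (right) in KO vehicle (red circles) and WT vehicle cells (grey squares), filled where the FDR is under 0.05. Nearly all mitosis genes lie between -3.89 and -0.83 in KO cells with the WT median at -0.30, whereas replication genes lie on both sides of 0 in KO cells.

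Most collagens, matrix proteoglycans and elastic fibre genes fell in both lines. Of 19 collagens, 18 fell in KO and 18 in WT, where 1 rose (medians -3.02 in KO and -2.67 in WT). Of 11 matrix proteoglycans, 11 fell in KO and 10 in WT (medians -3.70 in KO and -4.08 in WT). Of 17 elastic fibre genes, 13 fell in KO and 15 in WT (medians -2.04 in KO and -1.86 in WT). Other matrix and surface genes included reversals. The aggrecanase Adamts5 was at 85.0 ± 8.68 CPM in KO hypoxia and 41.6 ± 3.16 CPM in KO normoxia, and at 29.3 ± 1.04 CPM in WT hypoxia and 303 ± 2.06 CPM in WT normoxia, rising in KO and falling in WT (difference 4.41 ± 0.14, FDR 9.54e-20). Adamts1 showed the same pattern (3.67 ± 0.14, FDR 5.02e-18). Igfbp3 was at 148 ± 11 CPM in KO hypoxia and 655 ± 16.7 CPM in KO normoxia, and at 718 ± 46.8 CPM in WT hypoxia and 134 ± 11.6 CPM in WT normoxia, the opposite pattern (-4.56 ± 0.13, FDR 1.16e-20). Ly6a (Sca-1), a progenitor and fibroblast surface antigen, was at 53.5 ± 3.85 CPM in KO hypoxia and 275 ± 19.6 CPM in KO normoxia, and at 56.0 ± 3.87 CPM in WT hypoxia and 9.22 ± 0.471 CPM in WT normoxia, with similar levels in hypoxia and unequal ones in normoxia (difference -4.96 ± 0.17, FDR 5.02e-18). Prrx1, a mesenchymal transcription factor, was not called in KO (0.06 ± 0.07) and fell in WT (-3.05 ± 0.08). Acta2 was at 38.3 ± 1.2 CPM in KO hypoxia and 58.3 ± 3.57 CPM in KO normoxia, and at 31.3 ± 3.16 CPM in WT hypoxia and 263 ± 25.7 CPM in WT normoxia (difference 2.47 ± 0.27, FDR 5.95e-07).

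**Figure D4:**
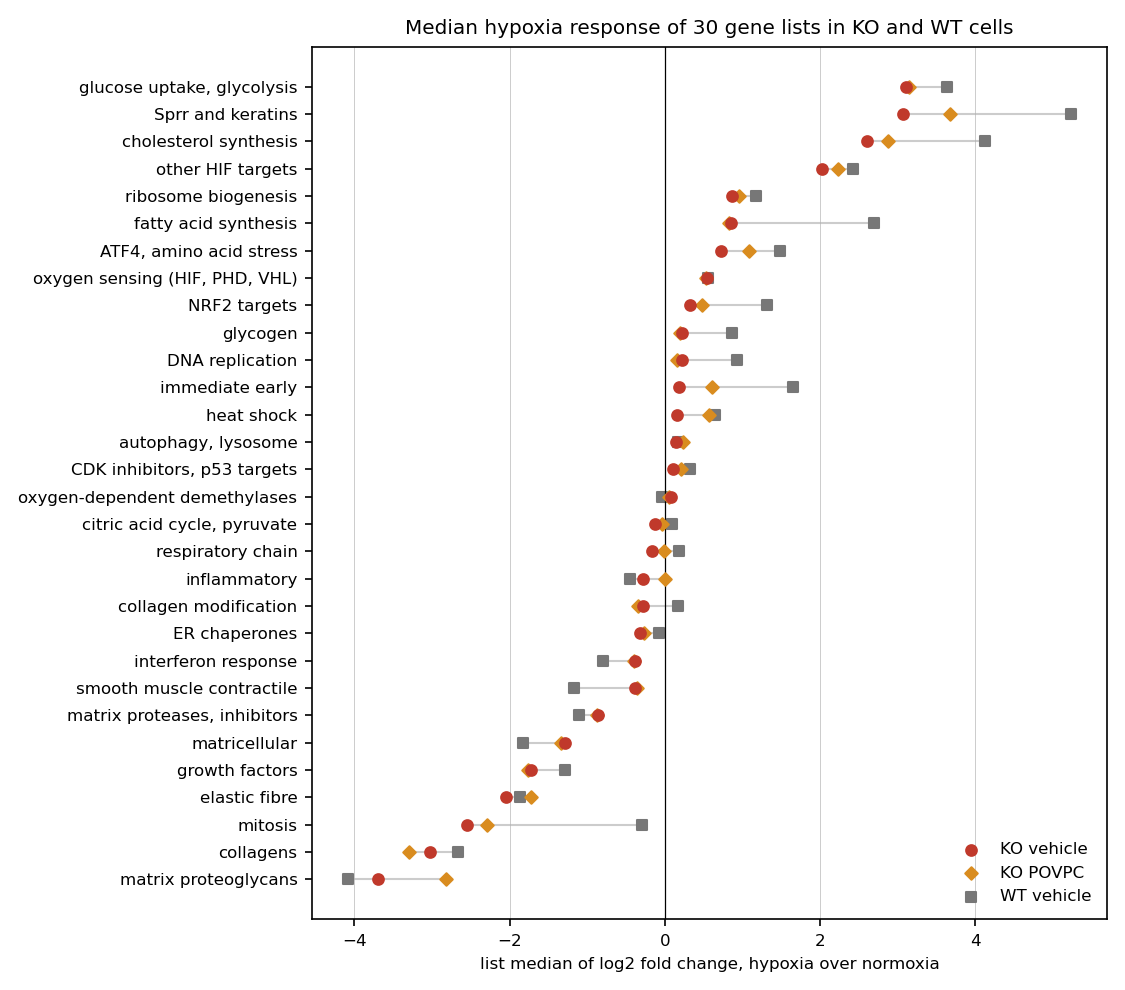
List medians of the log2 fold change of hypoxia over normoxia, from fitted values, in KO vehicle (red circles), KO POVPC (orange diamonds) and WT vehicle cells (grey squares). KO vehicle and KO POVPC lie close together for most lists. WT stands far from both for several lists, among them mitosis, fatty acid synthesis, cholesterol synthesis, immediate early genes and NRF2 targets. For the few tested Sprr and keratin genes, the WT median is the fitted value of Krt8. Krt8 had no count in WT normoxia, so the size of that median is uncertain.

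With POVPC, the KO response was close to that with vehicle for most genes, and it called 9924 genes (68.5%), 5003 higher (34.5%) and 4921 lower (33.9%). The responses differed in 93 of 14496 genes (0.642%), 52 higher (0.359%) and 41 lower (0.283%) with vehicle. That count was 265 with DESeq2 and 30 with scaling by library size alone, and 1426 genes had an unadjusted p under 0.05. Slc2a1 rose by 4.39 with vehicle and by 4.88 with POVPC (difference -0.50 ± 0.12, FDR 0.0554). That difference passed the threshold with DESeq2 (FDR 0.0203), no filter (FDR 0.0313), a filter of 5 CPM in 3 libraries (FDR 0.0401), and without vehicle normoxia 1 (FDR 0.0268), vehicle normoxia 3 (FDR 0.0449) or POVPC hypoxia 3 (FDR 0.037). Pdgfra, a receptor of mesenchymal cells, was at 17.2 ± 1.74 CPM in vehicle hypoxia and 98.6 ± 8.90 CPM in vehicle normoxia, and at 10.2 ± 1.24 CPM in POVPC hypoxia and 119 ± 5.47 CPM in POVPC normoxia (difference 1.03 ± 0.14, FDR 0.000332). Atf3, a stress-induced transcription factor, was at 24 ± 1.55 CPM in vehicle hypoxia and 8.73 ± 0.961 CPM in vehicle normoxia, and at 40.9 ± 6.85 CPM in POVPC hypoxia and 6.67 ± 0.166 CPM in POVPC normoxia (difference -1.15 ± 0.15, FDR 0.000158). Ptgs2 (cyclooxygenase-2) and the HIF target Ndrg1 likewise rose less with vehicle, while the ceruloplasmin gene Cp rose more with vehicle (2.43 with vehicle and 1.59 with POVPC).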

How the data were processed

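The authors deposited a table of raw read counts per gene for the 24 culture libraries. Reads were counted with featureCounts over exons of mm9 genes by gene name, unstranded and with each mate counted separately, per the file headers, and CASAVA, STAR, featureCounts, Subread and DESeq2 are named in the submitters' processing notes. From these counts, libraries were normalized by the trimmed mean of M values, and genes with low counts were removed with filterByExpr (minimum count 10, minimum total 15), leaving 14496 of 23284. A quasi-likelihood model of 8 groups was fitted over all 24 libraries with edgeR 4.0.16 in R 4.3.3, and p-values were adjusted by Benjamini-Hochberg over all tested genes, with an FDR under 0.05 called. CPM values use the normalized library sizes. The scripts were tested on simulated data. DESeq2 1.42.0, other scalings, filters, a replicate block and left-out libraries were alternatives.

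The genes named are Slc2a1, Sprr1a, Ankrd37 and Lum, the 15 largest rises and 15 largest falls with no overlap of libraries and a mean of at least 5 CPM in the higher group, up to 4 list members with the smallest p, all members of the glycolysis, oxygen sensing and HIF target lists, and the 10 smallest p in each direction for each difference between responses; others are said to be chosen after their values were seen. The members and lists were chosen with earlier results of these data known. Multimapping reads, high in some libraries, were not assigned to genes, which lowers levels of genes with near-identical copies.
A few named genes are not reported here.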

Additional observations from a re-analysis of the deposited data

Results flagged for a closer look

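The hypoxia response differed between KO and WT cells with vehicle in 5670 of 14496 genes (39.1%). Between vehicle and POVPC in KO cells it differed in 93 genes (0.642%). Each count is by the test of the difference between responses (edgeR). Over all tested genes, the KO response was lower than the WT response in 19.9% and higher in 19.2%. By list, it was lower in 14 of 23 glycolysis and 22 of 23 cholesterol synthesis genes. The same held for 12 of 12 fatty acid synthesis and 16 of 18 NRF2 target genes. It also held for 21 of 23 mitosis and 13 of 17 immediate early genes. The KO response was higher in 3 of these glycolysis and 2 of these immediate early genes, and in none of the other lists named here.

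As KO minus WT differences in log2 fold change, the response was higher in KO for Mcpt2 (6.65), Adamts5 (4.41), Adamts1 (3.67), Prrx1 (3.11), Angptl2 (2.88), Tmem64 (2.71), Fzd6 (2.60), Acta2 (2.47), Cxcl12 (2.15) and Slc2a1 (0.69). The Lum response also differed (FDR 0.000135), with no count in WT hypoxia and thus no size given. It was lower in KO for Ly6a (-4.96), Igfbp3 (-4.56), Krt19 (-4.0), Elovl6 (-3.79), Slc7a11 (-3.48), Mki67 (-3.34) and Plod2 (-2.68). Mcpt2, a mast cell protease gene, averaged 9.14 CPM in KO hypoxia and 0.0976 CPM in KO normoxia, and 0.219 CPM in WT hypoxia and 0.25 CPM in WT normoxia. With 1 line for each genotype, line and genotype cannot be told apart.

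As vehicle minus POVPC differences, the response was higher with vehicle for Clca2 (1.08), Pdgfra (1.03), Tead2 (0.91) and Cp (0.84), and lower for Ptgs2 (-1.21), Atf3 (-1.15), Tsc22d3 (-0.79) and Ndrg1 (-0.68). The Ndrg1 difference was lost with scaling by library size alone (FDR 0.0511).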

How the results depend on the processing

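The count of called genes, 9481, was 7762 to 9570 under the other settings run (8839 to 9138 with 1 library left out), and 3787 with a 2-fold minimum, 1440 higher and 2347 lower. List members called, 458 of 596, ranged over 423 to 463 (445 to 457 with 1 library left out). The KO minus WT count, 5670, ranged over 4984 to 6063 (5095 to 5933 with 1 library left out), with 49.2% higher in KO, 60.1% with scaling by library size alone and 38.4% with no filter. The vehicle minus POVPC count, 93, was 30 with library size alone (9 higher, 21 lower), 265 with DESeq2 (163 higher, 102 lower), and 48 to 170 with 1 library left out: 48 without vehicle hypoxia 2, 61 without vehicle normoxia 2, 149 without vehicle normoxia 3, 170 without POVPC hypoxia 1, 51 without POVPC hypoxia 3, and 48, 59 and 57 without POVPC normoxia 1, 2 and 3. The cause was not tested. The DNA replication median turned to -0.01692 with KO vehicle hypoxia 1 and 3 both left out, a setting chosen after seeing the data. For the named genes of the KO response, 1 library was left out in turn. Over these genes and fits, 1265 results kept their status, called or not called. In 12 results a call was lost, and in 1 a call was gained. With KO vehicle hypoxia 1 and 3 both left out, the hypoxia arm is 1 library, assumed to vary like the other groups. Acta2 then had a log2 fold change of -0.56, against -0.61 with all libraries. With the replicate number as a block, the counts were 9426, 460, 5617 and 99. The numbers are not said to pair the samples. Same-numbered hypoxia and normoxia libraries correlated at -0.255, -0.137 and -0.391 in their deviations from the group means. Deviations from means of 3 libraries are not independent of each other, so these values cannot decide whether the numbers pair the samples. Depth limits low genes most in KO vehicle hypoxia 3.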

Other observations

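Some gene families outside the lists, chosen after their values were seen, are given beside the 65.4% of all tested genes that were called. Both tested metallothioneins rose, Mt2 as described and Mt1 with 1651, 1426 and 1599 CPM in hypoxia, against 81.2, 80.3 and 81.4 CPM in normoxia. Of 48 protocadherins, 29 fell and 3 rose (median log2 fold change -0.69), and the 66.7% called is near the share of all genes. Of 25 Hox genes, 13 fell and 5 rose (median -0.47, 72% called). Of 17 aminoacyl-tRNA synthetases, 12 rose and 1 fell (median 0.40, 76.5% called). Of 80 cytosolic ribosomal protein genes, 17 rose and 6 fell (median 0.13, 28.8% called). Of 89 small nucleolar RNAs, 19 rose and 1 fell (22.5% called), with a median of 1.01 that was 0.08 without KO vehicle hypoxia 3.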
